A study of Mus musculus with 16 samples.

Results

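Cyp19a1, Nr5a2, Fshr, Amh, Amhr2, Inha, Foxl2 and Hsd17b1 are genes best known from granulosa cells, and they were followed here in RNA and DNA of growing mouse oocytes. They are 8 of the 25965 genes in the expression table, taken as a named list because earlier values of the same libraries had shown Cyp19a1 and Nr5a2 higher in larger oocytes and the other 6 near 0. The members were thus chosen on their RNA levels and whole-genome methylation, which are given as a description, with no test. Reduced representation bisulphite sequencing (RRBS) was not used in the choice and is tested. The levels given here repeat the values behind that choice and are no support for it. Cyp19a1 and Nr5a2 were higher in each larger size class, and Foxl2 was not. Fshr, Amh, Amhr2, Inha and Hsd17b1 were higher in the largest growing oocytes than in the smallest. They stayed below 0.6 RPKM (reads scaled by transcript length and library size), so near 0 describes the other 6 only in part.

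Oocytes of Wild-type mice on a C57BL/6 background (C57BL/6Babr in the study's methods) were sorted by diameter, and all groups share that genotype and strain. RNA was sequenced from 10-30 µm oocytes of mice aged 5 to 7 days after birth, 40-45 µm oocytes of 7 to 12 days, 50-55 µm oocytes of 9 to 14 days and 60-65 µm oocytes of 13 to 16 days, with 2 libraries each (A and B), and from GV (germinal vesicle) oocytes of mice aged 20 days, for which the table has 1 column. RRBS, which samples CpG-rich sequence, was done on all growing classes but the smallest, with 2 libraries each, and post-bisulphite adapter tagging (PBAT), which samples the whole genome, on 60-65 µm oocytes with 1 library. Each library is a pool of many hand-picked oocytes washed to remove somatic cells, so diameter and age moved together and cannot be told apart, and in such pools fewer cells of a type and less RNA per cell cannot be told apart either. Nothing states that A and B came from separate animals, so a test measures only the spread between these pools.

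Granulosa cells surround the oocyte in the follicle and exchange signals with it. FSH acts on them through its receptor and raises the enzymes that turn androgens into oestrogens, while AMH and inhibin, members of the TGF-beta family made by the same cells, restrain follicle recruitment and FSH release. The nuclear receptor NR5A2 and the forkhead factor FOXL2 are transcription factors needed for granulosa cell function. In growing oocytes DNA methylation is laid down de novo, mainly over transcribed gene bodies, while CpG-rich starts of active genes stay unmethylated.

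The RNA libraries hold 99369453 to 198298126 reads as recovered from the RPKM steps, the RRBS libraries 30000113 to 57319823 methylation calls, and the PBAT library 99039028 calls with a median of 2 per position. At that depth Nr5a2 rests on 491 to 4229 reads per library and Cyp19a1 on 38 to 1190, but Foxl2 on 6 to 17, Hsd17b1 on 8 to 27 and Amhr2 on 8 to 34. The tissue label held in these libraries: all 15 listed oocyte markers were present, with summed levels of 2877 to 4124 RPKM.

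Sequence around the gene starts shows how differently these genes are built. RefSeq windows (GRCm38, 250 bases before to 50 after a start) were found for 6 of the 8 genes, and the windows printed are those closest to where the expression table puts the start of Cyp19a1 and Nr5a2, with Fshr and Foxl2 for contrast. Each reads 5′ to 3′ on the gene's own strand, with CpG sites, where methylation was measured, in capitals.
Cyp19a1, chr9:54193694-54193993, minus strand: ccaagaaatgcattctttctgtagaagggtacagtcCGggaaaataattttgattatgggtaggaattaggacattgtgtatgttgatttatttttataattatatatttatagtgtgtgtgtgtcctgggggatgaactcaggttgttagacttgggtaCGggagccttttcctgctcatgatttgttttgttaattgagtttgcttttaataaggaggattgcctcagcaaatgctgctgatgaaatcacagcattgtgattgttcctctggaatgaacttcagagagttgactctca
Nr5a2, chr1:136960399-136960698, minus strand: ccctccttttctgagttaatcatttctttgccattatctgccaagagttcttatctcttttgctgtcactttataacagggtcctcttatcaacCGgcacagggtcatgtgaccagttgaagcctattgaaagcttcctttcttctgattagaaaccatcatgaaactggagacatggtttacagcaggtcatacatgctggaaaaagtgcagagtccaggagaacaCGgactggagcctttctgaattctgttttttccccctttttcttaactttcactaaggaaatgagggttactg
Fshr, chr17:89200626-89200925, minus strand: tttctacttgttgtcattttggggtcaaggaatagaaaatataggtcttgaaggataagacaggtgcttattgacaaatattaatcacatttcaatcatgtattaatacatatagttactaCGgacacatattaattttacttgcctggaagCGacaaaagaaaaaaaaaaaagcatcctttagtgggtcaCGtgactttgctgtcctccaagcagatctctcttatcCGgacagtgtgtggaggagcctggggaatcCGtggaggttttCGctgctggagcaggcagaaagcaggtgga
Foxl2, chr9:98955357-98955656, plus strand: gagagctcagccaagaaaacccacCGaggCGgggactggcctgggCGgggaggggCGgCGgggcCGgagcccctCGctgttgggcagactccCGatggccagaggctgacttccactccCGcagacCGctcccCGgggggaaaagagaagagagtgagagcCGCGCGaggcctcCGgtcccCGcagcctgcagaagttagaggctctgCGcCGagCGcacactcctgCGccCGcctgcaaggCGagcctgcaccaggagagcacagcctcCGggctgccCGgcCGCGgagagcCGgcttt
Cyp19a1 and Nr5a2 hold 2 CpG sites each and Fshr holds 6, against a median of 7 over 32851 windows, whereas Foxl2 holds 27, more than 84.5% of windows. The RefSeq start of the Cyp19a1 window lies 301 bp before the start in the expression table, and there are further RefSeq starts 35472 and 74722 bp upstream. The letters of 7 short motifs were searched on both strands, some overlapping another. AAGGTCA, an NR5A site, was in none of these 4 windows but once in that of Amhr2, and 4.72% of all windows hold it. TGACGTCA, the cAMP response element, and its shorter form TGACG were in none of the 9 windows found for the 6 genes, against 1.79% and 20.8% of all. TATAAA, the core promoter box, occurred 2 times in the Cyp19a1 window and once in that of Nr5a2 (13.6% of all windows). TAATTG, the site of the oocyte factor NOBOX, occurred once in the Cyp19a1 window and once in that of Amhr2 (8.0% of all). AGATAA, the site of the Gata4 family, occurred 2 times in the Nr5a2 window (11.2% of all), and CAGGTG, an E-box, 2 times in the Fshr window (20.2% of all). Among the further RefSeq windows, that of Cyp19a1 35472 bp upstream held TATAAA 2 times and TAATTG once, and the Nr5a2 window inside the gene held CAGGTG once. A match is a description only, as is the lack of one.

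Nr5a2, a nuclear receptor that activates steroidogenic genes, had the highest level of the 8 genes in every library. It lies on chromosome 1 at 136843584 to 136960427 (GRCm38, minus strand). Its level was 1.29 and 1.73 RPKM in the 10-30 µm libraries, 2.43 and 2.66 at 40-45 µm, 3.78 and 3.91 at 50-55 µm, 4.81 and 4.60 at 60-65 µm, and 5.56 in GV. Every class lay above the one before with no overlap between libraries, and the means went from 1.51 ± 0.310 (SD, n = 2) to 4.70 ± 0.145 (SD, n = 2), 3.12-fold. The step was largest between the first 2 classes (1.69-fold) and smallest between 60-65 µm and GV (1.18-fold).

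Cyp19a1, which encodes aromatase, the enzyme that makes oestrogens from androgens, started level with Inha and ended next below Nr5a2. It lies on chromosome 9 at 54165937 to 54193442 on the minus strand. It measured 0.161 and 0.159 RPKM at 10-30 µm, 0.266 and 0.227 at 40-45 µm, 0.502 and 0.515 at 50-55 µm, 1.25 and 1.04 at 60-65 µm, and 2.53 in GV. Again no class overlapped the one before. The mean went from 0.160 ± 0.00150 (SD, n = 2) to 1.15 ± 0.149 (SD, n = 2), 7.18-fold, and GV stood 15.8-fold above 10-30 µm. Its steps between class means were 1.54-fold, 2.06-fold, 2.26-fold and, into GV, 2.20-fold. Cyp19a1 and Nr5a2 were the only 2 of the 8 genes with each growing class wholly above the one before; 10.7% of genes detected in all 9 columns do the same, and nothing is read from this count because the pattern was known when the genes were chosen.

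Hsd17b1, which reduces oestrone to the more active oestradiol, stayed at 0.0517 to 0.171 RPKM in all 9 columns. Its highest library was 50-55 µm A (0.171), whose partner B measured 0.0870. The 60-65 µm libraries at 0.114 and 0.0702 overlapped those at 40-45 µm (0.0746 and 0.0899) and GV was 0.0866, while the 10-30 µm libraries, at 0.0601 and 0.0517, were the lowest. With 8 to 27 reads a library, the larger classes could not be ordered.

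Fshr, the receptor for FSH, resembled Cyp19a1 in shape at a level about 5 times lower at 60-65 µm. It measured 0.0436 and 0.0545 RPKM at 10-30 µm, 0.0288 and 0.0806 at 40-45 µm, 0.160 and 0.156 at 50-55 µm, 0.238 and 0.229 at 60-65 µm, and 0.286 in GV. The 2 smallest classes overlapped, and from 50-55 µm onwards each class lay above the one before. The mean was 4.76-fold higher at 60-65 µm (0.233 ± 0.00652, SD, n = 2) than at 10-30 µm (0.0490 ± 0.00770, SD, n = 2), on 9 to 86 reads in those 4 libraries.

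Inha, the inhibin alpha subunit, and the AMH pair were highest at 50-65 µm and lower in GV. Inha measured 0.136 and 0.20 RPKM at 10-30 µm, 0.239 and 0.185 at 40-45 µm, 0.536 and 0.377 at 50-55 µm, 0.542 and 0.528 at 60-65 µm, and 0.168 in GV, which is 0.313 times the 60-65 µm mean. Amh, the anti-Müllerian hormone ligand, measured 0.0967 and 0.0907, then 0.156 and 0.0817, 0.281 and 0.190, 0.229 and 0.189 in the same order, and 0.0697 in GV. Amhr2, its type II receptor, measured 0.0402 and 0.0471, then 0.0399 and 0.0235, 0.144 and 0.10, 0.0808 and 0.0773, and 0.0529 in GV. In all 3 genes both 50-55 µm libraries lay above both 40-45 µm libraries, and in Amh and Inha the 50-55 and 60-65 µm classes overlapped.

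Foxl2, the forkhead factor that marks granulosa identity, was the lowest of the 8 genes at 60-65 µm. It measured 0.0639 and 0.0424 RPKM at 10-30 µm, 0.0396 and 0.0145 at 40-45 µm, 0.0405 and 0.0154 at 50-55 µm, 0.0642 and 0.0373 at 60-65 µm, and 0.0200 in GV. The 60-65 µm and 10-30 µm libraries overlapped and their means differed by a factor of 0.954. In 7 of the 8 genes, all but Foxl2, both 60-65 µm libraries lay above both 10-30 µm libraries, as in 38.3% of genes detected in all 9 columns and 40.2% of genes passing the filter on low values; the count is descriptive for the same reason as above.

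**Figure D1:**
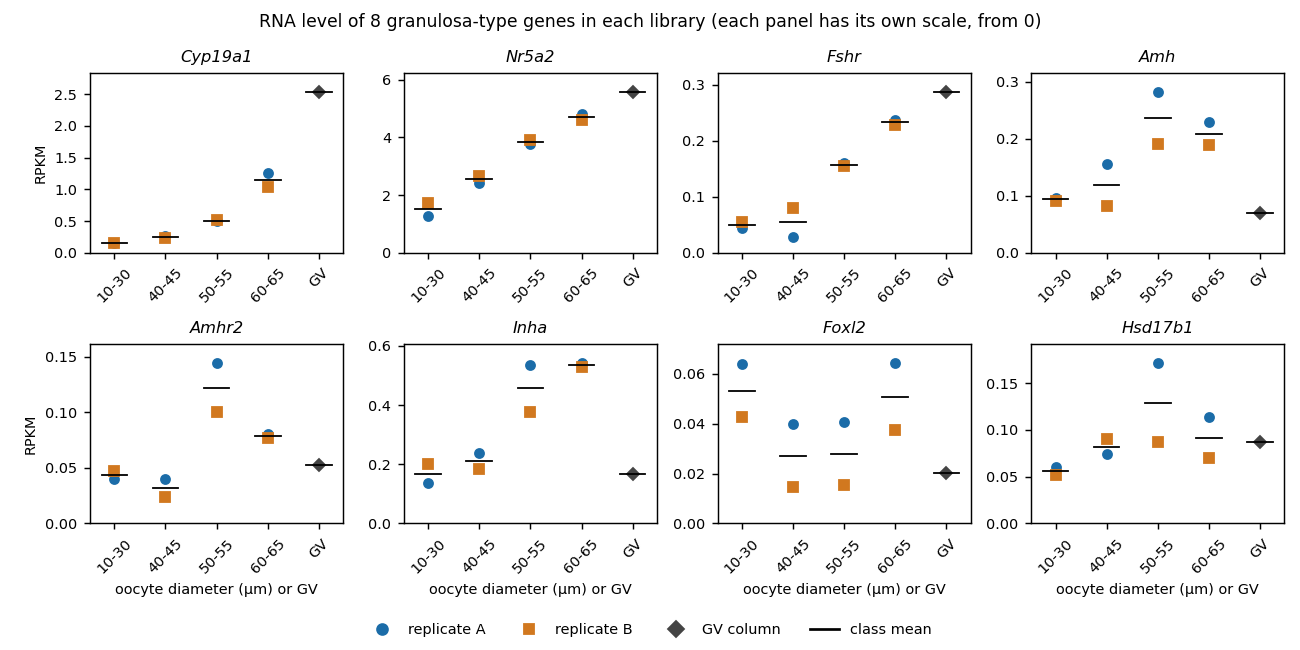
RNA level in RPKM (vertical axis, a scale from 0 for each gene) of the 8 genes by oocyte diameter in µm or GV (horizontal axis), with replicate A as circles, replicate B as squares, the single GV column as diamonds and class means as lines. Cyp19a1 and Nr5a2 are higher in every larger class, ending at 2.53 and 5.56 RPKM in GV, whereas Inha, Amh and Amhr2 are lower in GV than at 60-65 µm and Foxl2 stays at or under 0.0642 RPKM.

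The order of levels also changed with size. At 10-30 µm Nr5a2 stood alone, Inha (0.168 RPKM) and Cyp19a1 (0.160) overlapped, Amh followed at 0.0937, and Hsd17b1, Foxl2, Fshr and Amhr2 lay at 0.0559 to 0.0437 with overlapping libraries. At 60-65 µm the order was Nr5a2 (4.70), Cyp19a1 (1.15), Inha (0.535), Fshr (0.233), Amh (0.209), Hsd17b1 (0.0919), Amhr2 (0.0790) and Foxl2 (0.0507). There Fshr and Amh differed by less than the SD of Amh, and Hsd17b1 and Amhr2 overlapped. The ratio of Cyp19a1 to Inha, both per kilobase within a library, lay between 0.794 and 1.37 in the 6 libraries up to 50-55 µm, was 2.32 and 1.97 at 60-65 µm, and reached 15.1 in GV.

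Among 30 further granulosa markers, 22 stayed below 0.5 RPKM in all 9 columns and 7 could be tested. Of those 7, 5 were higher at 60-65 µm than at 10-30 µm and 1 was lower in limma with Benjamini-Hochberg adjustment, where 30.8% of the 10518 tested genes were higher and 32.6% lower. Esr2, an oestrogen receptor, rose from 0.624 ± 0.14 to 4.80 ± 0.523 RPKM (SD, n = 2 each; limma adjusted p = 2.53e-05) and measured 6.41 in GV. Named after their values were seen, the others that rose were Gata4, Emx2, Slc18a2 and Krt8, and the one that fell was Bex4. Gata4, Emx2 and Slc18a2 were below 0.5 RPKM in both 10-30 µm libraries and Bex4 in both at 60-65 µm, so these 4 could be tested only because of the classes where they are high, Krt8 was above 0.5 RPKM in 1 of the 2 libraries at 10-30 µm, and the counts are no support for a direction of the list. Serpine2, the highest of the list, was at 11.2 ± 0.859 and 13.1 ± 0.927 RPKM (SD, n = 2 each; limma adjusted p = 0.0714). Without the filter on low values 17 of the 30 passed the test, 11 higher and 6 lower, against 46.7% of all 20052 genes in that fit (22.8% higher), and with a filter of 1 RPKM 3 did, against 62.9% of 9055 genes.

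**Figure D2:**
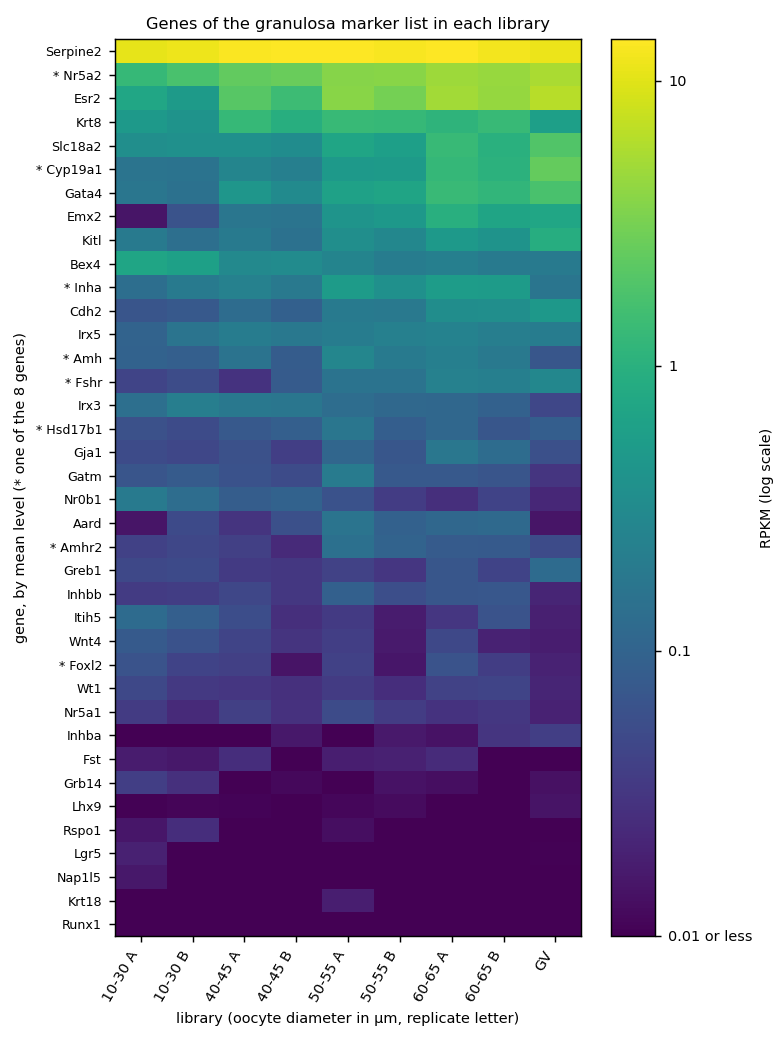
Levels in RPKM (colour, log scale, values of 0.01 or less shown alike) of the 38 genes of the granulosa list (rows, by mean level, with asterisks at the 8 genes) in the 9 RNA columns. Serpine2, Nr5a2, Esr2, Cyp19a1 and Gata4 lie among the upper rows, and most other rows, Foxl2 among them, stay dark from 10-30 µm to GV.

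The list was uneven in level. Named after their values were seen, Nr5a1 (0.0202 to 0.0521 RPKM), Wt1 (0.0212 to 0.0487), Fst (0.00216 to 0.0256) and Inhba (0.00635 to 0.0382), transcription factors and secreted regulators of FSH, stayed close to 0. Serpine2, Esr2, Gata4, Slc18a2, Emx2 and Krt8 did not, and Gata4 measured 0.173 and 0.150 RPKM at 10-30 µm and 1.34 and 1.17 at 60-65 µm. The summed level of the 30 markers was 14.4 and 15.2 RPKM at 10-30 µm, 25.9 and 23.0 at 60-65 µm and 25.2 in GV, most of it Serpine2 and Esr2. The summed level of theca and stroma markers, most of it 3 collagens and Ptch1, was 5.26 and 4.38 RPKM at 10-30 µm, 2.38 and 1.96 at 60-65 µm and 1.15 in GV; 10 of 14 stayed below 0.5 RPKM, and of 4 tested, 3 fell and 0 rose in limma (Col1a1, Col1a2 and Col3a1, collagens named after their values were seen), or 1 when either 10-30 µm library was left out. All 3 were below 0.5 RPKM in both 60-65 µm libraries and so testable only through smaller classes; with no filter on low values 8 of the 14 passed, 2 higher and 6 lower, where 46.7% of all genes did. Cyp17a1, the androgen-making enzyme of theca cells, was listed at 0 in both 10-30 µm libraries and at 0.0132 and 0.107 RPKM at 60-65 µm, and the LH receptor Lhcgr went from 0.00394 and 0.00246 to 0.0186 and 0.0152 (untested, named after their values were seen). Ptch1, the highest of that list, was 1.13 ± 0.231 and 0.974 ± 0.179 RPKM (SD, n = 2 each; limma adjusted p = 0.333). Of 9 endothelial, blood and immune markers in the table, Pecam1, an adhesion protein, was the only one tested, and rose from 0.549 ± 0.0256 to 4.45 ± 0.365 RPKM (SD, n = 2 each, limma adjusted p = 6.67e-06). With no filter 4 of the 9 passed, 4 higher and 0 lower, where 46.7% of all genes passed and 22.8% were higher. What part RNA from other cells had in the low levels of Inha, Amh, Amhr2, Hsd17b1 and Foxl2 was not tested.

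Oocyte markers gave a frame for these changes. Of the 15, all tested, 3 were higher and 7 lower at 60-65 µm in limma, with a median log2 difference of -0.25 against -0.01 over all tested genes; with no filter on low values 6 passed, 2 higher and 4 lower. Bmp15, a growth factor that the oocyte sends to granulosa cells, rose from 66.8 ± 0.490 to 215 ± 2.88 RPKM (SD, n = 2 each; limma adjusted p = 1.15e-05), and Sohlh1, a transcription factor of early follicles, fell from 47.3 ± 3.31 to 1.45 ± 0.404 (SD, n = 2 each; limma adjusted p = 6.67e-06). Zp2, of the egg coat, was the highest at 1071 ± 4.79 and 677 ± 81.0 RPKM (SD, n = 2 each; limma adjusted p = 0.00174), far above any of the 8 genes.

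Other genes of the same pathways were present around the 8. With the filter on low values, calls went in both directions in the steroidogenesis, gonadotrophin receptor and nuclear receptor lists. In the AMH and inhibin signalling list and the fox and gonad identity list they were only higher. Over all tested genes 30.8% were higher and 32.6% lower in limma. With no filter 46.7% of genes were called, 22.8% as higher. The counts that follow are read against those shares, and nothing particular to these lists is drawn from them. Of 25 other steroidogenesis genes, 11 were tested, 4 rose and 3 fell in limma: Soat1, which esterifies cholesterol, rose from 5.95 ± 0.704 to 10.25 ± 0.596 RPKM (SD, n = 2 each; limma adjusted p = 0.000257), and Hsd17b10, a mitochondrial member of the enzyme family of Hsd17b1, fell from 15.1 ± 1.83 to 3.78 ± 0.917 (SD, n = 2 each; limma adjusted p = 3.95e-05). Of the 3 that fell, Hsd3b6 was below 0.5 RPKM in both 60-65 µm libraries. With no filter on low values 13 of the 25 passed. Of 21 other AMH and inhibin signalling genes, 13 were tested, 6 rose and 0 fell. Tgfbr3, the co-receptor for inhibin, rose from 0.889 ± 0.0370 to 2.95 ± 0.424 RPKM, Smad3 from 7.15 ± 1.45 to 15.8 ± 1.15, and the activin receptor Acvr1b from 5.77 ± 0.997 to 11.9 ± 1.07 (SD, n = 2 each; limma adjusted p = 1.83e-05, 0.000141 and 0.000144).

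Downstream of the gonadotrophin receptors, 12 of 17 other genes were tested, 4 rose and 3 fell in limma, of which Creb1 was below 0.5 RPKM in both 60-65 µm libraries. Gpr3, the receptor that keeps cAMP high in oocytes, rose from 2.48 ± 0.758 to 6.07 ± 0.00310 RPKM (SD, n = 2 each; limma adjusted p = 0.000481), and Prkacb, a catalytic subunit of the cAMP-dependent kinase, fell from 5.47 ± 1.24 to 2.47 ± 0.0199 (SD, n = 2 each; limma adjusted p = 0.000350). Of 25 oestrogen and nuclear receptor genes, 14 were tested, 4 rose and 2 fell. Esrrb, an orphan receptor, rose from 1.30 ± 0.422 to 6.91 ± 0.508 RPKM (SD, n = 2 each; limma adjusted p = 1.96e-05), while Esr1 fell from 5.22 ± 0.00403 to 3.62 ± 0.364 (SD, n = 2 each; limma adjusted p = 0.00214), opposite to Esr2. Of 16 other fox and gonad identity genes, 6 were tested and all 6 rose (30.8% of all tested genes did), but Gata4 and Emx2 were testable only through the larger classes. Foxo1 rose from 2.90 ± 1.58 to 6.83 ± 0.683 RPKM and Cbx2 from 10.1 ± 2.03 to 23.6 ± 1.62 (SD, n = 2 each; limma adjusted p = 0.0107 and 7.50e-05); with no filter 7 of the 16 passed, all higher, and without 60-65 µm library A 2 did.

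Genes whose log2 level ran most like Cyp19a1 over the 9 columns were Myo16, AC169518.1, 4930522H14Rik, Nckap1l and Cmtm8 (Pearson r 0.996 to 0.997), and those most like Nr5a2 were Lpin2, Nfya, Myo1c, Bcar3 and Txndc5 (r 0.997 to 0.998). The columns share size order, so high r was common: 4.77% of 10517 genes reached 0.95 with Cyp19a1 and 10.7% with Nr5a2. Among the 8 genes, r was 0.906 between Cyp19a1 and Nr5a2, 0.932 between Cyp19a1 and Fshr, and 0.915 between Nr5a2 and Fshr, but -0.15 to 0.40 between Cyp19a1 and the other 5. Between Nr5a2 and those 5 it ran from -0.35 (Foxl2) to 0.62 (Inha). The nearest genes on each side did not share the pattern of either, but they lie far off. Tnfaip8l3 and 1700104A03Rik, 97525 and 75135 bp from Cyp19a1, stayed at 0.00855 RPKM or below. Zfp281, 213530 bp from Nr5a2, went from 3.45 and 4.38 at 10-30 µm to 1.79 and 2.11 at 60-65 µm. A130050O07Rik, 967742 bp from Nr5a2, stayed at 0.00478 or below.

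DNA methylation in the 60-65 µm PBAT library set the 8 gene bodies apart, without following their RNA levels throughout. Mean methylation over CpG positions with at least 5 reads was 38.4% in Nr5a2 (449 positions), 25.3% in Cyp19a1 (81), 12.8% in Fshr (332), 7.67% in Amh (123), 3.99% in Amhr2 (81), 3.64% in Foxl2 (219), 3.42% in Inha (35) and 58.0% in Hsd17b1 (66). There was 1 library, so no spread between replicates is known; the share of methylated calls over all reads, with its Wilson 95% interval for counting error only, was 37.4% (36.2 to 38.5) in Nr5a2, 19.8% (17.7 to 22.1) in Cyp19a1 and 55.8% (52.2 to 59.4) in Hsd17b1. Across 22170 genes the median body was at 15.2%, and it was 7.49% for genes below 0.1 RPKM at 60-65 µm, 31.1% for 0.5 to 2 RPKM and 32.4% for 2 to 10 RPKM.

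Nr5a2 and Cyp19a1 lay within the middle range of genes of their own RNA level, at percentiles 61.7 and 38.9. Inha, in the same RNA band as Cyp19a1, was at percentile 2.73 of that band and 11.8 of the 406 genes in it of like length, whose median was 10.04%, with Obsl1 624 bp away on the opposite strand at 5.93% and Stk11ip 11162 bp away on the same strand at 60.2%. Fshr, Amh, Amhr2 and Foxl2 were at percentiles 40.3, 22.6, 15.3 and 12.8 of their bands. Among genes of like length in the band they were at 23.0, 60.1, 16.4 and 24.6. The medians of those genes were 23.6%, 6.28%, 7.11% and 6.59%, so Fshr and Amh changed places once length was matched. Hsd17b1, with an RNA level of 0.0919 RPKM, was at percentile 96.7 of the 10073 genes below 0.1 RPKM, of which 4.67% reached 50%. It starts 738 bp after the end of Naglu on the same strand, a gene at 1.45 to 2.08 RPKM with a body at 37.5%, and 2037 bp before Coasy, at 36.1%; the part of these neighbours in its methylation was not tested.

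**Figure D3:**
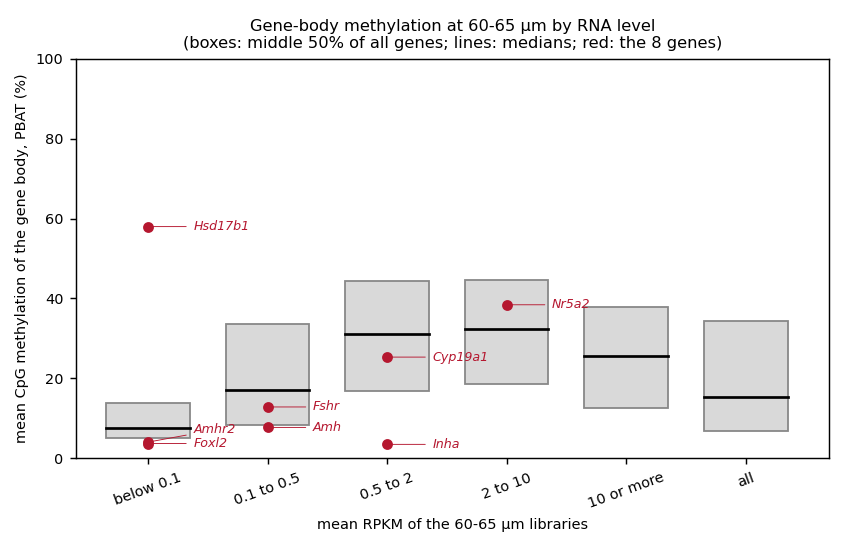
Mean CpG methylation of gene bodies in the 60-65 µm PBAT library (vertical axis, %) by mean RPKM of the 60-65 µm RNA libraries (horizontal axis), with boxes for the middle 50% of all genes, lines for medians and red points for the 8 genes. Nr5a2 at 38.4% and Cyp19a1 at 25.3% lie inside the boxes of their levels, Inha at 3.42%, Amh at 7.67%, Amhr2 at 3.99% and Foxl2 at 3.64% below theirs, and Hsd17b1 at 58.0% far above the box of genes below 0.1 RPKM.

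Along the genes, methylation was low near the start and higher towards the end in Cyp19a1 and Nr5a2. High values were not confined to the genes. Beyond the end of Cyp19a1, bins 36000 to 42000 bp from the start were at 42.5 to 70.4%, after 5 to 15.6% at 28500 to 33000 bp. Beyond the end of Nr5a2, bins at 120000 to 130000 bp were at 55.1 and 58.4%, before 17.6% in the next. In 4 equal parts of the gene from its start, the share of methylated calls was 7.01%, 15.7%, 14.4% and 44.3% in Cyp19a1 and 21.6%, 51.6%, 42.7% and 49.3% in Nr5a2. Wilson intervals of the first and last parts were 4.67 to 10.4% and 38.7 to 50.1% in Cyp19a1, and 20.1 to 23.2% and 46.9 to 51.8% in Nr5a2, for counting error in this 1 library only. In Nr5a2 the first 12 kb stood at 8.21% and the rest of the gene at 47.8%, a division chosen after the profile was seen. Between the upstream RefSeq starts of Cyp19a1, methylation was 7.73% and 7.96%, near that of its first part. Fshr was lower and varied less, from 8.51% (6.90 to 10.5) in the third part to 14.9% (13.1 to 17.0) in the last, and Hsd17b1 was high throughout, at 48.4 to 62.4%.

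Start windows of the printed sequences had few calls in all but Foxl2. In the Cyp19a1 window 3 of 17 calls were methylated (17.6%, Wilson interval 6.19 to 41.0), in Nr5a2 0 of 10 (0 to 27.8%), in Fshr 2 of 41 (4.88%, 1.35 to 16.1) and in Foxl2, with its 27 CpG sites, 25 of 377 (6.63%, 4.53 to 9.61). RefSeq has a further Nr5a2 start inside the gene, at 136953630 on chromosome 1, where 8 of 17 calls were methylated (47.1%, 26.2 to 69.0). Amh was methylated in the first of 4 equal parts, 40.6% (31.3 to 50.6) against 2.93 to 5.61% in the other 3, and the gene Sf3a2, at 1.22 to 2.07 RPKM on the same strand, ends 323 bp before it; the part of Sf3a2 was not tested.

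**Figure D4:**
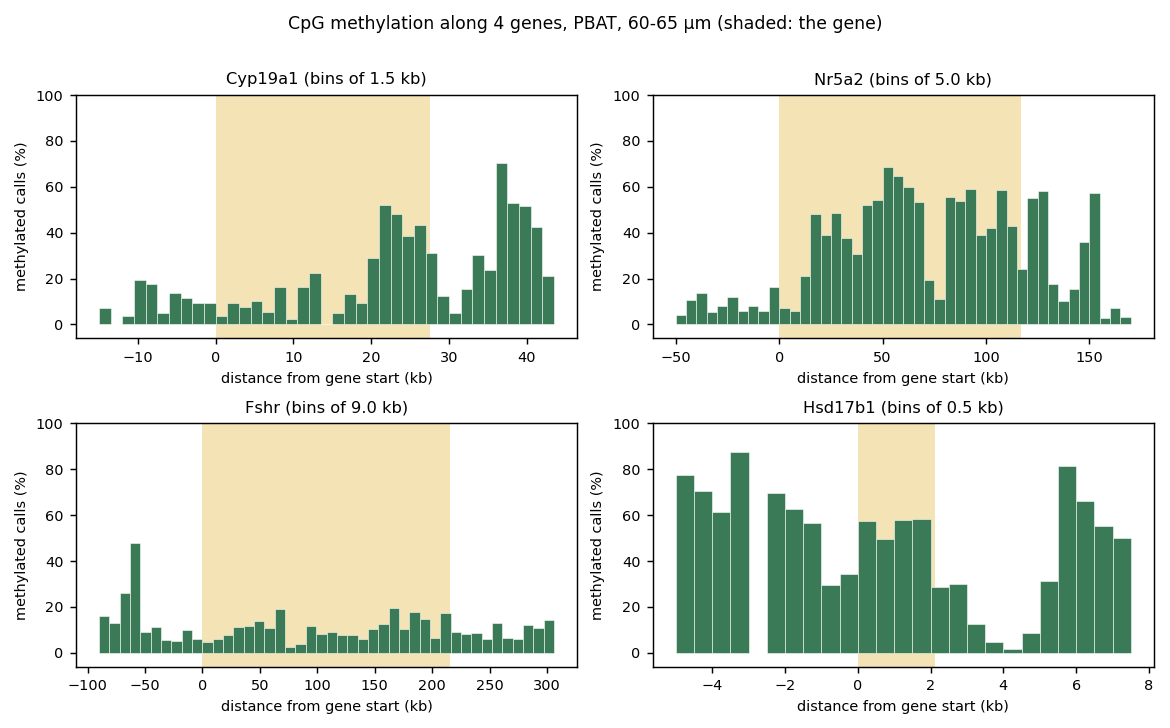
Share of methylated calls (vertical axis, %) in bins along Cyp19a1, Nr5a2, Fshr and Hsd17b1 and their flanks by distance from the gene start in kb (horizontal axis), with the gene shaded, in the 60-65 µm PBAT library. Cyp19a1 and Nr5a2 are low at the start and higher further in, reaching 44.3% and 49.3% in the last of 4 equal parts, Fshr is at 8.51 to 14.9% in such parts, and Hsd17b1 at 48.4 to 62.4%.

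RRBS, which was not used to choose the genes, followed the gain from 40-45 to 60-65 µm. Its largest class is the one PBAT also measured, and PBAT was used in the choice, so the 60-65 µm values are not independent of it. Of the 8 gene bodies, 5 had at least 5 positions in all 6 libraries, and 2 of them, Nr5a2 and Hsd17b1, gained methylation in edgeR's quasi-likelihood test with Benjamini-Hochberg adjustment, against 33.0% of 13870 gene bodies tested. Cyp19a1 and Amhr2 had at most 2 positions in any library and Inha as few as 3, so their bodies could not be tested with all 6 libraries; without 50-55 µm B, which had the 3, the Inha body had a log2 odds ratio of 0.46 (edgeR adjusted p = 0.826).

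The stretches shown were chosen after their values were seen, the Nr5a2 one as the largest gain among 6 in that gene with positions read in all 6 libraries. They read 5′ to 3′ on the gene's strand (GRCm38), CpG sites in capitals, and extend a few bases beyond the measured positions.
Nr5a2, chr1:136912409-136912514, minus strand: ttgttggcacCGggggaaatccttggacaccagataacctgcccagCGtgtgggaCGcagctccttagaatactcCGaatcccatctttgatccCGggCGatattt
Hsd17b1, chr11:101080108-101080229, plus strand: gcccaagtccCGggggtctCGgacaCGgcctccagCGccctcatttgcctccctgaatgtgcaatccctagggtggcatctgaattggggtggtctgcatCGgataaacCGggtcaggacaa
The Nr5a2 stretch lies in an intron about 48 kb from the start, and the Hsd17b1 stretch is coding sequence of exon 6 of 6 in the GENCODE annotation. Over 5 positions the Nr5a2 stretch went from 0.412 and 0% at 40-45 µm to 17.8 and 16.1% at 50-55 µm and 42.2 and 30.4% at 60-65 µm, and over 6 positions the Hsd17b1 stretch went from 2.44 and 1.76% to 26.9 and 15.8% and then 47.5 and 45.4%. In both, no class overlapped the one before.

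Over its whole body Nr5a2 measured 0.937 and 1.52% at 40-45 µm, 3.78 and 5.92% at 50-55 µm, and 9.50 and 11.7% at 60-65 µm, with no overlap between classes. The log2 odds ratio of 60-65 over 40-45 µm was 3.23 (edgeR adjusted p = 0.00145, both libraries above both at 40-45 µm). Position within the gene mattered: the stretch 11230 to 12961 bp from the start, which includes an exon, went from 1.07 and 0% to 8.16 and 8.48%, a single position 88914 bp in went from 4.47 and 3.79% to 22.8 and 16.6%, another at 73376 bp was at 0 and 1.14% at first and 0 and 1.92% at 60-65 µm, and the 3 positions near 2 kb stayed at 0 to 0.654%. The 4 positions at 7210 to 7371 bp were at 0 in both 60-65 µm libraries but at 17.9% in 50-55 µm B.

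Hsd17b1 measured 1.89 and 1.33% at 40-45 µm, 47.6 and 19.5% at 50-55 µm, and 49.9 and 47.3% at 60-65 µm, a log2 odds ratio of 5.90 (edgeR adjusted p = 0.00151, both libraries above both at 40-45 µm). On the 9 positions read in all 6 libraries the 50-55 µm values were 24.3 and 19.5%, so most of the gap between those 2 libraries came with positions that B lacks. Its RNA stayed at or below 0.171 RPKM in all 9 columns, as given above.

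The other tested bodies did not pass. Amh measured 0.210 and 0% at 40-45 µm, 0.0953 and 3.07% at 50-55 µm, and 0.573 and 0.754% at 60-65 µm, with a log2 odds ratio of 3.66 (edgeR adjusted p = 0.149). The 11 Amh positions read in all 6 libraries lie 1943 to 2015 bp from the start, in the last exon, and so say nothing of the first part, which PBAT had at 40.6%. Foxl2 stayed between 0.350 and 1.00% in all 6 libraries, on 101 to 144 positions (log2 odds ratio 0.17, edgeR adjusted p = 0.856). Fshr rested on 5 to 9 positions with values of 9.04, 0.538, 14.9, 23.3, 5.37 and 0% in order of size (log2 odds ratio 0.05, edgeR adjusted p = 0.993), and its direction turned when 40-45 µm B or 60-65 µm A was left out. Starts could be tested for Inha and Foxl2 only: Inha was at 0.0749 to 1.46% and Foxl2 at 0.544 to 1.17% in every library, with log2 odds ratios of -0.95 and 0.08 (edgeR adjusted p = 1 for each), where 0.716% of 12008 starts gained.

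**Figure D5:**
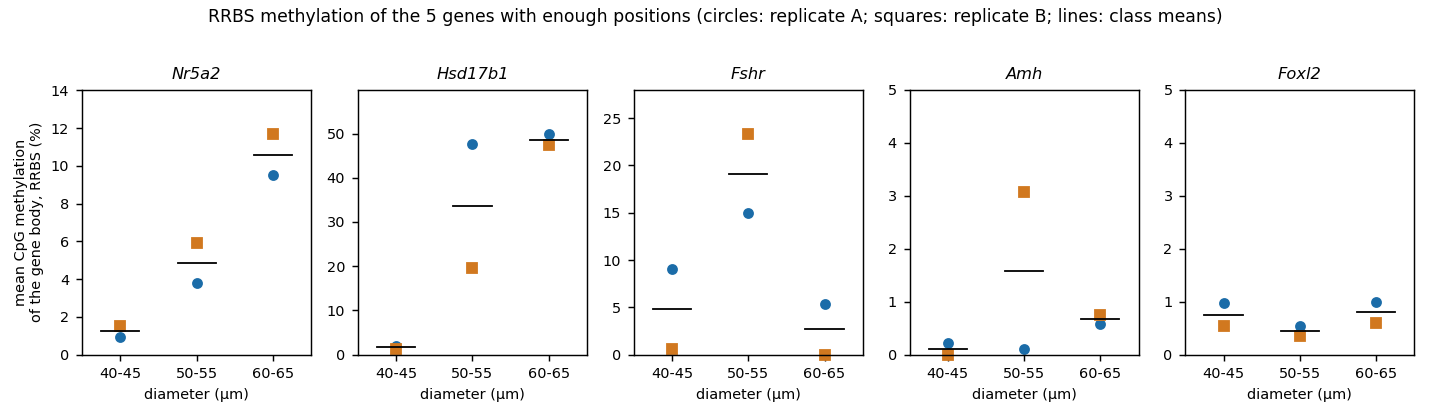
Mean CpG methylation of the gene body by RRBS (vertical axis, %, a scale from 0 for each gene) by oocyte diameter in µm (horizontal axis) for the 5 genes with enough positions, replicate A as circles, B as squares and class means as lines. Nr5a2 reaches 9.50 and 11.7% and Hsd17b1 49.9 and 47.3% at 60-65 µm, whereas Amh and Foxl2 stay within 0 to 3.07% and Fshr has no order by size.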

How the data were processed

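RNA, RRBS and PBAT libraries were grouped by the diameters in the sample labels. The authors deposited RPKM values per gene for RNA; reads of these strand-specific libraries were trimmed with Trim Galore 0.2.8 and mapped to GRCm38 with TopHat2 2.0.9. The study's methods name SeqMonk and Cufflinks for quantification and analysis; which of them made this table, and whether it counted by strand, is not given in the sources used here. The authors deposited methylated and unmethylated read counts per CpG position, with the percent, after trimming with Trim Galore 0.3.5 and mapping to GRCm38 with Bismark, 0.14.0 for RRBS and 0.10.0 for PBAT. The 8 genes and all lists were chosen with earlier results of these data known.

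Genes with at least 0.5 RPKM in 2 of 8 growing libraries were tested (10518, of the 8 genes Cyp19a1, Nr5a2 and Inha) with limma 3.58.1 on log2(RPKM + 0.1) after trimmed-mean scaling, a mean per class, Benjamini-Hochberg threshold 0.05. Fold changes in the text are ratios of mean RPKM. Because an RPKM step is 1 read, whole reads were recovered within 0.1 reads for 10516 of the 10518 tested genes (99.98%), and edgeR 4.0.16 on these reads called 6625 genes. RRBS calls were summed per gene over positions with at least 5 reads, at least 5 positions in every library, and tested with edgeR's quasi-likelihood test with 1 common dispersion. Named genes were the 8, from each list the 3 largest rises and falls among tested genes with a mean of at least 1 RPKM and the highest gene of the other cell types, the 5 genes of highest Pearson r, and the nearest neighbours.

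Both tests were tried on simulated data. A first RRBS simulation, with beta-distributed spread, gave 0 of 200 changed genes; with the spread taken from the libraries, 186 of 200 changed bodies were found, with 10 false calls among 13870. The test was not altered, but other dispersions were fitted to the real calls meanwhile and are given with the alternatives. Intervals cover counting error only. Deviations of same-letter RNA libraries correlated at 0.590 to 0.670 among the 3 smaller classes, but at -0.225, -0.025 and 0.113 with 60-65 µm, and RRBS ones at -0.025 to 0.054. Not every pair was over 0.1, so the letters were not taken as a pairing.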

Additional observations from a re-analysis of the deposited data

How the results depend on the processing

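The RNA count of 6669 changed genes stayed between 5694 and 9363 under other pseudocounts, scaling and filters, was 6625 with edgeR, and 4862 to 6672 when a library was left out. RRBS gains in gene bodies numbered 4580, and 2417 to 5232 when a library was left out (3042 without 60-65 µm A, 2417 without B, fewer samples in the fit). Gains at starts numbered 86, 170 among starts with a mean of at least 5%, 237 with no dispersion beyond the quasi-likelihood one (an alternative chosen after seeing the data, like a dispersion per gene and edgeR on RNA reads), and 16 to 139 when a library was left out (44 without 40-45 µm B, 22 and 16 without 60-65 µm A and B, 139 without 50-55 µm B). Nr5a2 and Hsd17b1 bodies passed under each of the 13 alternatives, with edgeR or limma adjusted p up to 0.0242 and 0.0354; 4 of these leave 1 library at 40-45 or 60-65 µm, which is then assumed to vary like the other groups. The log2 odds ratio of the Fshr body, 0.05, was -0.079 with the replicate block, -1.05 without 40-45 µm B and -4.87 without 60-65 µm A, and ranged from -4.87 to 2.18 when a library was left out. That of Foxl2, 0.17, ranged from -0.16 (without 60-65 µm A, and -0.11 without 40-45 µm B) to 0.48. That of Amh, 3.66, ranged from 2.89 without 40-45 µm B to 5.46 without 40-45 µm A. The letters were not taken as a pairing; with the replicate block 7273 RNA genes, 4300 bodies and 80 starts passed, and of the list counts steroidogenesis went from 7 to 9, oestrogen and nuclear receptors from 6 to 8 and AMH and inhibin signalling from 6 to 7.

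The log2 difference of RNA between 60-65 and 10-30 µm depends on the pseudocount where levels are low. With a pseudocount of 1 it was 0.88 for Cyp19a1, 1.18 for Nr5a2, 0.23 for Fshr, 0.14 for Amh, 0.047 for Amhr2, 0.39 for Inha, -0.0043 for Foxl2 and 0.046 for Hsd17b1. With 0.01 it was 2.75 for Cyp19a1, 2.04 for Fshr, 1.06 for Amh, 0.72 for Amhr2, 1.62 for Inha, -0.082 for Foxl2 and 0.59 for Hsd17b1. Of the 5 genes most like Cyp19a1, 3, 2 and 0 were shared with a pseudocount of 1, without GV and by Spearman rho, and for Nr5a2 3, 1 and 0.

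PBAT means moved with the read minimum at a median depth of 2 calls. At the minimum of 5 reads, starts were at 8.92% in Cyp19a1, 28.6% in Nr5a2 (1 position), 3.92% in Fshr, 25.1% in Amh, 1.71% in Amhr2, 5.82% in Inha, 4.64% in Foxl2 and 51.2% in Hsd17b1. Counting positions with 1 read, bodies were at 18.1% in Cyp19a1, 39.2% in Nr5a2, 10.6% in Fshr and 6.21% in Amhr2, and the start of Nr5a2 at 7.86%. With 10 reads, bodies were at 30.4% in Cyp19a1 and 28.1% in Nr5a2, and starts at 9.39% in Fshr, 51.3% in Amh and 0% in Amhr2. Pooled calls gave 19.8% in Cyp19a1 and 11.8% in Fshr. By strand, Nr5a2 was at 33.4% (plus) and 42.4% (minus) and Amh at 11.2% (minus). Narrowing the window to 250 bp before to 50 bp after the start in the expression table, over positions with at least 5 reads, put Cyp19a1, Amhr2 and Inha at 0% and Foxl2 at 7.23%; the values given for the RefSeq windows differ because they count every call and, for Cyp19a1, another start. The cause of these shifts was not tested.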
